A study of Mus musculus with 4 samples.

Results

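The aldo-keto reductases are a superfamily of NADPH-dependent enzymes that reduce aldehydes and ketones to alcohols. 10 of their genes were followed in the livers of *Rap1*-deficient mice and their wild-type controls: *Akr1a1*, *Akr1b3*, *Akr1b7*, *Akr1b8*, *Akr1c6*, *Akr1c12*, *Akr1c13*, *Akr1c14*, *Akr1c19* and *Akr7a5*. All 11 probes that the array carried under accessions of these genes are described, of 55681 probes in all. The genes were chosen by name with the ratios of these same arrays known, so their ratios, fold changes and adjusted p-values are a description and test nothing about the group. The 10 genes stand beside 13167 named genes that were measured well enough to be tested.

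Liver RNA of whole-body *Rap1* knockout mice (genotype Rap1 -/-) was set against that of wild-type mice, both on a mixed C57BL6/129SV background (90% and 10%) and, by the labels, 30 weeks old. The knockout allele had been made with a Cre recombinase under the EIIa promoter, which acts in the early embryo, and the Cre transgene was then bred out, so the deletion was in the whole body. The labels give no sex, and the paper describes females of another age on standard chow. There were 4 Agilent 2-colour arrays, each carrying liver RNA of both genotypes. The *Rap1*-deficient liver carried the dye Cy5 on the arrays of replicates 1, 2 and 3, and Cy3 on a dye-swapped array, which was taken from its number in the labels as the swap of replicate 1. Each value below is a log2 ratio of *Rap1*-deficient over wild-type liver, after background correction and loess normalization, with the sign of the swapped array turned. The replicate 1 array and its swap were averaged for the test, which left n = 3 pairs. A standard error over the pairs does not hold the spread between those averaged arrays. Whether the 3 pairs came from separate animals is not stated in the labels, and the p-values measure only the spread between these pairs.

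The dye-swapped array stood apart from the other 3. Across the 27513 tested probes, the arrays of replicates 1, 2 and 3 correlated with each other at r = 0.64 to 0.85 and with the swapped array at r = -0.24 to -0.29. Its ratios had an SD of 0.24, against 0.48 to 0.51. The test (limma, Benjamini-Hochberg FDR under 0.15) called 34.5% of the tested probes, 20.8% higher and 13.7% lower in *Rap1*-deficient liver, and 36.2% of the called probes had the same direction on the swapped array. The share of calls that were higher was 60.3%, and it was 45.3% in the authors' value table, 49.3% for the signals processed by Agilent's software and 87.7% after centring on the median. With a term for the dye over the 4 arrays, 6.7% of the probes were called. That fit counts the replicate 1 array and its swap as separate samples, so its n is above the 3 pairs, and its standard errors and p-values, here and below, take no account of the RNA that these arrays may share. The ratio on the swapped array is therefore given for every probe below.

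RAP1 is encoded by *Terf2ip*. Probe A_52_P381806 of this gene had ratios of -1.74, -1.92 and -1.91 on replicates 1 to 3 and -1.68 on the swapped array. In wild-type liver its signal was well above background on 4 of 4 arrays, and in *Rap1*-deficient liver on 0 of 4, which makes the level on this probe at least 3.33-fold lower (adjusted p = 0.00859 from limma). This bound sets the mean wild-type level against the dimmest signal that still counted as well above background on each array, and it is open to dye bias. The other *Terf2ip* probe, A_55_P2094079, had ratios of 1.17, 1.07, 0.88 and 0.72. It was called higher in *Rap1*-deficient liver, with a log2 fold change of 0.96 ± 0.09 (SE, adjusted p = 0.0329 from limma). The probes of this gene thus went in opposite directions. The sources do not state whether either of them lies in the deleted exons, and a probe outside of those would check nothing.

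The group falls into subfamilies with different substrates. *Akr1b3* encodes aldose reductase, which turns glucose into sorbitol at the entry of the polyol pathway, and *Akr1b7* and *Akr1b8* encode related enzymes that reduce lipid-derived aldehydes. The *Akr1c* genes encode hydroxysteroid dehydrogenases, which switch steroid hormones and bile acid precursors between their hydroxyl and keto forms. *Akr1a1* encodes aldehyde reductase, which reduces glucuronate on the way to vitamin C in mice, and *Akr7a5* encodes an aflatoxin aldehyde reductase. In RefSeq's gene order (GRCm38.p6), *Akr1b3*, *Akr1b8*, *Akr1b10* and *Akr1b7* follow each other on chromosome 6 without another protein-coding gene between them. On chromosome 13, *Akr1c14*, *Akr1c18*, *Akr1c13*, *Akr1c19*, *Akr1c12*, *Akr1c6*, *Akr1c20* and *Akr1c21* do the same. *Akr1a1* and *Akr7a5* lie apart on chromosome 4.

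Promoter windows from 250 bases before to 50 bases after the start site were taken from RefSeq (GRCm38.p6) for 9 of the 10 genes, all but *Akr1b3*. Over the 36 pairs of windows, aligned end to end, the median identity was 46.8%. *Akr1c12* and *Akr1c13* shared 93.4% of their aligned positions (284 of 304), and the next pair, *Akr1c13* and *Akr1c19*, shared 58.8%. *Akr1c12* and *Akr1c13* are shown as the pair with the highest identity. Their probes had nearly the same ratios on replicates 1 and 2 and opposite signs on the swapped array, given below. *Akr1c14*, whose window shared 47.6% with that of *Akr1c13*, had the sign of *Akr1c13* on all 4 arrays. A link between window identity and ratios was not tested. The windows are chr13:4279350-4279649 on the minus strand and chr13:4190937-4191236 on the plus strand, written 5′ to 3′, with capitals for the bases that differ from, or have no partner in, the other window.
Akr1c12: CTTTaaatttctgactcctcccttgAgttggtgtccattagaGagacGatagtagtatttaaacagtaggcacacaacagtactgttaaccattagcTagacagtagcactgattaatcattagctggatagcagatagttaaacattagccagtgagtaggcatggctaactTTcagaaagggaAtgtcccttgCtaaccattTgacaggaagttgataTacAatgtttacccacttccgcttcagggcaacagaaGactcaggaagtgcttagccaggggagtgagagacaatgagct
Akr1c13: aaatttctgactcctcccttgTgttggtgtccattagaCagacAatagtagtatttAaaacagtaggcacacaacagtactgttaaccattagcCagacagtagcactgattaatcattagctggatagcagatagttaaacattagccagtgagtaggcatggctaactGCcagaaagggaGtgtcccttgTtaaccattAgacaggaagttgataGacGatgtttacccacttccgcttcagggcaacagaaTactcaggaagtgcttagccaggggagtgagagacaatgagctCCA

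*Akr1b8* and *Akr1b7* are shown as members of one gene cluster whose probes lay on opposite sides of 0. Their windows, chr6:34353896-34354195 and chr6:34412112-34412411, both on the plus strand, had an identity of 48.7%. Capitals mark a match to TATAAA on the opposite strand.
Akr1b8: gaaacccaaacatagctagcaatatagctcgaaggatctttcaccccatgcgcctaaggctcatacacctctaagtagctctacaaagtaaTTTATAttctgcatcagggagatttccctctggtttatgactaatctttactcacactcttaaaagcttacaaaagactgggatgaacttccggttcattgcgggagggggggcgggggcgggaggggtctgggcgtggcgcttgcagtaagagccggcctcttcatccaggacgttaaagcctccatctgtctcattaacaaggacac
Akr1b7: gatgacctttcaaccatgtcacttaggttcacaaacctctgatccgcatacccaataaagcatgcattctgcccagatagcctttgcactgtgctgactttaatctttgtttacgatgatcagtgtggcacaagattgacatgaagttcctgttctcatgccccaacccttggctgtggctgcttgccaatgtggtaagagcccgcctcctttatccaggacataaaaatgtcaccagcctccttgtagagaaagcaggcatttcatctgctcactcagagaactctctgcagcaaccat

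A search of both strands was made for 4 short motifs. The telomere repeat TTAGGG, which the shelterin complex binds, was in 0 of the 9 windows and in 10.6% of all 32851 promoter windows of that table. The core of the antioxidant response element, TGACNNNGC, was in the window of *Akr1c19*, against 12.4% of all windows. The STAT element TTCNNNGAA was also in the window of *Akr1c19*, against 8.3% of all windows. The TATA box TATAAA was in those of *Akr1b8* and *Akr1c6*, against 13.6%. No 2 of these matches overlapped. A match is a string of letters and not a bound site, and its absence says only that these letters are not in the window.

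Of the 11 probes, all were bright enough to be tested, and 8 had an adjusted p under 0.15, 5 of them higher and 3 lower in *Rap1*-deficient liver. The background is the 34.5% of all tested probes. The adjusted p-values of these 8 ranged from 0.0154 to 0.097, and that of the nearest probe beyond the threshold, *Akr1c14*, was 0.154. The median log2 fold change of the 11 probes was 0.10, against 0.03 over all tested probes, and their median ratio on the swapped array was 0.17, against -0.01. The ratio had the same sign on all 4 arrays for 7 of the 11 probes, against 21.5% of all tested probes. These 7 were all among the 8, and the swapped array is itself part of the test. On 3 probes, those of *Akr1a1*, *Akr1c13* and *Akr1c14*, the swapped array had the opposite sign to the other 3. Counted over genes with their brightest probe, 7 of 10 were called, against 34.1% of all named genes. In whole liver, fewer cells of a type and less RNA per cell cannot be told apart.

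**Figure D1:**
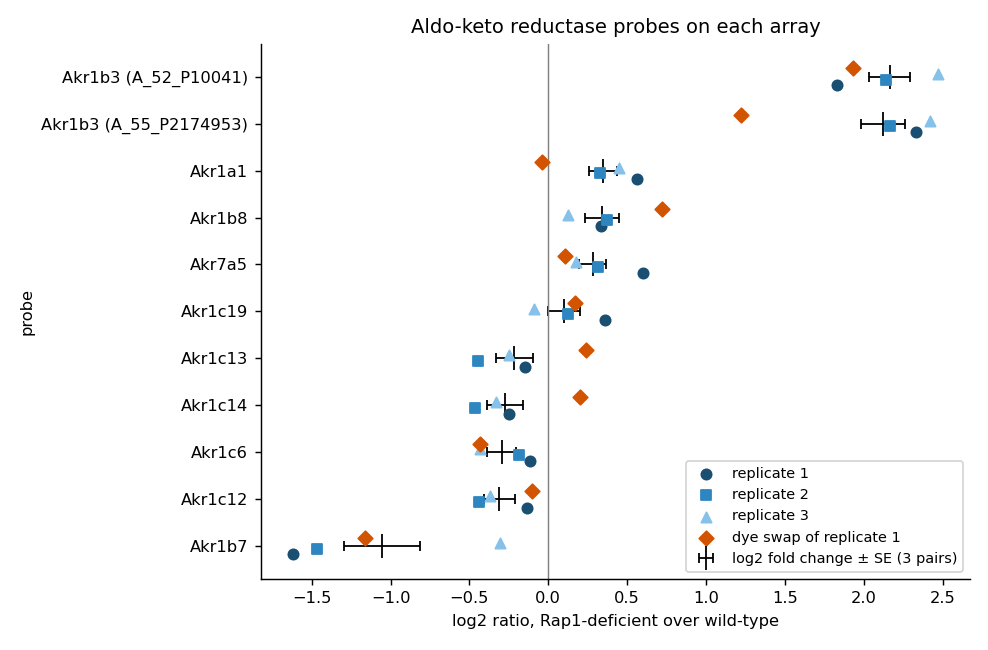
The log2 ratio of *Rap1*-deficient over wild-type liver for the 11 probes, with 1 point per array and a bar for the log2 fold change ± standard error over 3 pairs. Both *Akr1b3* probes sit at 1.22 or above on all 4 arrays, *Akr1b7* sits below 0 on all 4, and the other 8 probes lie between -0.46 and 0.72.

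*Akr1b3* had the largest difference among the 10 genes, and both of its probes showed it on every array. The level of probe A_52_P10041, the log2 intensity of a channel after normalization, in *Rap1*-deficient liver was 11.99, 12.31 and 12.61 on replicates 1 to 3 and 12.21 on the swapped array. In wild-type liver it was 10.16, 10.16, 10.13 and 10.27. Every *Rap1*-deficient value lay above every wild-type value. The ratios of 1.83, 2.14, 2.47 and 1.93 gave a log2 fold change of 2.17 ± 0.13 (SE, n = 3 pairs), a 4.49-fold higher level. The other *Akr1b3* probe, A_55_P2174953, had ratios of 2.33, 2.17 and 2.42 on replicates 1 to 3 and 1.22 on the swapped array, with a log2 fold change of 2.12 ± 0.14 (SE, n = 3 pairs). On this probe the wild-type level was 7.22, 7.26 and 7.28 in Cy3 and 7.85 in Cy5, whereas the *Rap1*-deficient level was 9.55, 9.42 and 9.70 in Cy5 and 9.07 in Cy3. Each genotype read higher in Cy5, and the levels of the genotypes still did not overlap. With the dye term, the dye coefficient of this probe was 0.54 (adjusted p = 0.0218) and the log2 fold change 1.76 ± 0.08 (SE). For A_52_P10041 these were 0.11 (adjusted p = 0.636) and 2.04 ± 0.13 (SE).

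*Akr1b7*, first described as an androgen-dependent protein of the vas deferens and also abundant in the adrenal gland, was lower in *Rap1*-deficient liver on all 4 arrays. Its level was 7.94, 7.85 and 7.82 in wild-type liver on replicates 1 to 3 and 7.75 on the swapped array. In *Rap1*-deficient liver it was 6.33, 6.38 and 7.52 on replicates 1 to 3 and 6.59 on the swapped array. The 4 wild-type values lay close together and above all *Rap1*-deficient values, and the *Rap1*-deficient liver of replicate 3 lay closer to them than to the others of its genotype. The ratios were -1.62, -1.47, -0.30 and -1.16, and the log2 fold change was -1.05 ± 0.24 (SE, n = 3 pairs). Its signal was well above background on every array in the wild-type channel and on 2 of 4 arrays in the *Rap1*-deficient channel. Without replicate 3 the log2 fold change was -1.43, and it was -2.28 from the signals that Agilent's software had processed. Of 6 adrenal cortex markers, *Cyp11b1*, *Cyp11b2*, *Mc2r* and *Cyp11a1* were not well above background on any array. *Cyp21a1*, the steroid 21-hydroxylase gene, was well above background in both channels of every array, with ratios of 0.0014, 0.31 and 0.74 on replicates 1 to 3 and -0.0033 on the swapped array, and *Star* was so on 2 arrays in *Rap1*-deficient and 1 in wild-type liver. The log2 of the summed intensities of the 6 markers ranged from 9.46 to 9.99 in *Rap1*-deficient and from 9.44 to 9.64 in wild-type liver. The highest value, and the highest *Cyp21a1* ratio, were those of replicate 3, on which *Akr1b7* was least reduced. Their part in the *Akr1b7* ratios was not tested.

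*Akr1b8*, a fibroblast growth factor-induced member of the family, lies next to *Akr1b3* in the gene order. Its probe A_51_P128987 was printed as 10 spots on each array. The level was 10.45, 10.52, 10.28 and 10.71 in *Rap1*-deficient liver and 10.12, 10.15, 10.15 and 9.99 in wild-type liver, on replicates 1 to 3 and the swapped array. The genotypes did not overlap, and they lay closest on replicate 3. The ratios of 0.34, 0.37, 0.12 and 0.72 gave a log2 fold change of 0.34 ± 0.11 (SE). Over the 10 spots, the SD of the ratio within an array was 0.04 to 0.07, and on replicate 3 single spots ranged from -0.02 to 0.22. The swapped array had the largest ratio of the 4, and with the dye term the log2 fold change was 0.50 ± 0.09 (SE). Levels that did not overlap between the genotypes on the 4 arrays were found for 4 of the 11 probes, from *Akr1b3*, *Akr1b7* and *Akr1b8*, and for 10.5% of all tested probes.

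**Figure D2:**
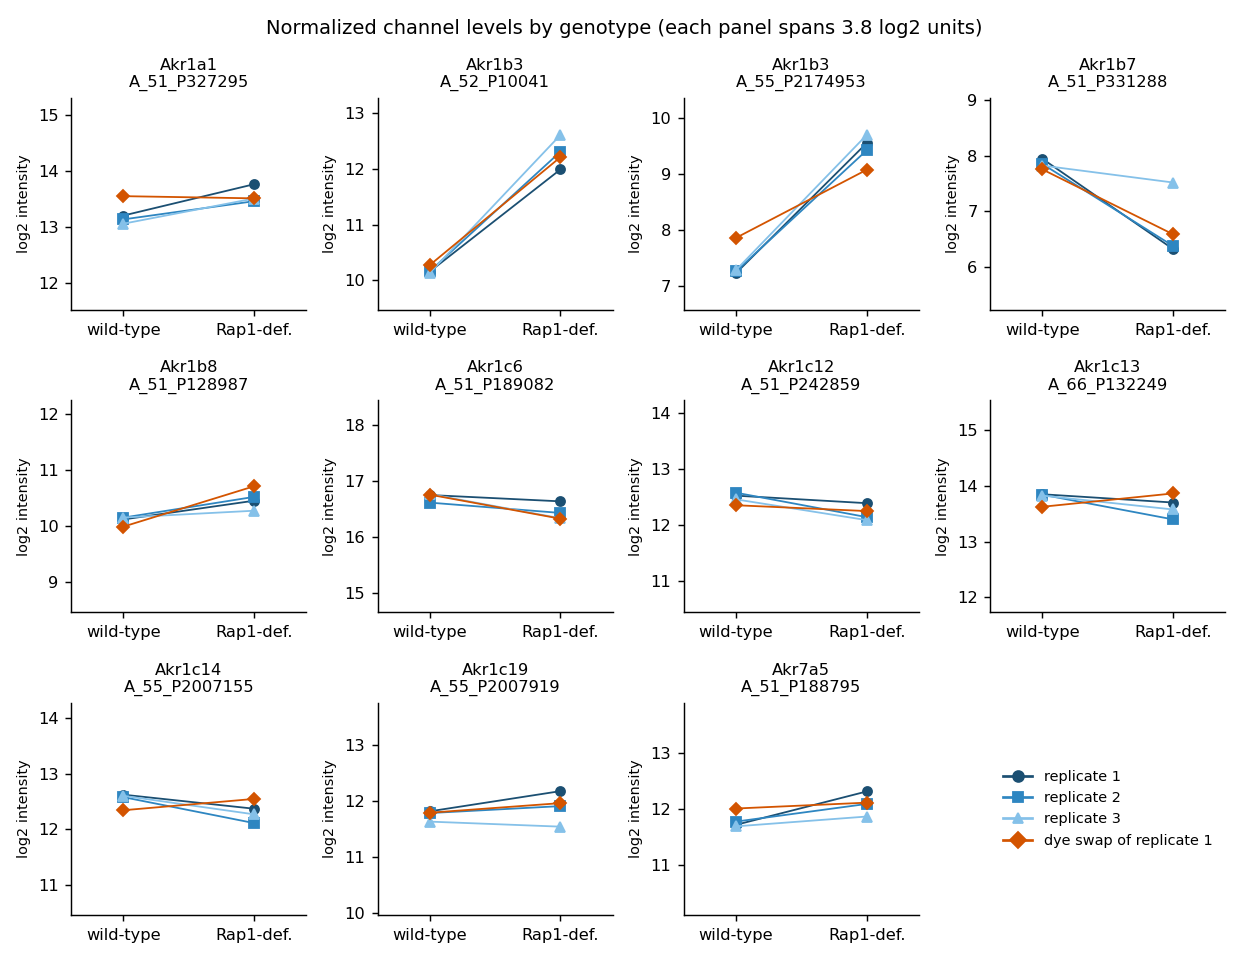
Normalized log2 intensity of each of the 11 probes in wild-type and *Rap1*-deficient liver, with 1 line per array joining the channels of that array, in panels that each span the same range. The lines of *Akr1b3* all rise and those of *Akr1b7* all fall, with replicate 3 of *Akr1b7* falling by 0.30, whereas in the panels of *Akr1c13* and *Akr1c14* the swapped array runs opposite to the other 3. Levels of different probes are not comparable.

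The 5 hydroxysteroid dehydrogenase genes of the *Akr1c* cluster showed small differences. An adjusted p under 0.15 was found for 2 of them, both lower, against 34.5% of all tested probes. *Akr1c6*, a dehydrogenase of estradiol and testosterone that is abundant in liver, had ratios of -0.11, -0.18 and -0.43 on replicates 1 to 3 and -0.43 on the swapped array, with a log2 fold change of -0.30 ± 0.09 (SE). *Akr1c12* had ratios of -0.13, -0.44, -0.37 and -0.10 and a log2 fold change of -0.31 ± 0.10 (SE). Both genes were lower on all 4 arrays, with levels that overlapped between the genotypes. With median centring, which put the median of all tested probes at 0.17 instead of 0.03, the log2 fold changes were -0.06 for *Akr1c6* and -0.15 for *Akr1c12*, and neither was called.

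*Akr1c13*, whose promoter window is printed above beside that of *Akr1c12*, had ratios of -0.15, -0.44 and -0.25 on replicates 1, 2 and 3. On these arrays they ran close to those of *Akr1c12*. On the swapped array *Akr1c13* had 0.24 and *Akr1c12* -0.10. The log2 fold change of *Akr1c13* was -0.22 ± 0.12 (SE, adjusted p = 0.251 from limma) and it was -0.02 with the dye term. The gene products are close relatives, and whether each probe reads only 1 of the 2 transcripts was not tested.

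*Akr1c14*, another of these dehydrogenases, had ratios of -0.25, -0.46 and -0.33 on replicates 1 to 3 and 0.20 on the swapped array. Its log2 fold change was -0.27 ± 0.11 (SE), and it was called without the swapped array (-0.35), without replicate 1 (-0.40) and with the authors' value table (-0.35). *Akr1c19* had ratios of 0.36, 0.12, -0.09 and 0.17 and a log2 fold change of 0.10 ± 0.10 (SE, adjusted p = 0.519 from limma). It was the only one of the 5 *Akr1c* genes with a positive log2 fold change. The median over the 5 probes was -0.27, and 0.17 on the swapped array.

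The genes outside the clusters were both higher by small amounts. *Akr1a1* had ratios of 0.56, 0.33 and 0.45 on replicates 1 to 3 and -0.04 on the swapped array, with a log2 fold change of 0.35 ± 0.09 (SE). Its wild-type level was 13.20, 13.13 and 13.06 in Cy3 and 13.55 in Cy5, so the levels of the genotypes overlapped. *Akr7a5* had ratios of 0.60, 0.32, 0.18 and 0.10 and a log2 fold change of 0.28 ± 0.09 (SE). It was higher on all 4 arrays, and its levels overlapped as well. With the dye term the log2 fold changes were 0.20 (adjusted p = 0.286 from limma) for *Akr1a1* and 0.23 (adjusted p = 0.32 from limma) for *Akr7a5*. In all, 4 of the 11 probes were called with the dye term, both of *Akr1b3* and those of *Akr1b7* and *Akr1b8*, beside the 6.7% of all tested probes given above.

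**Figure D3:**
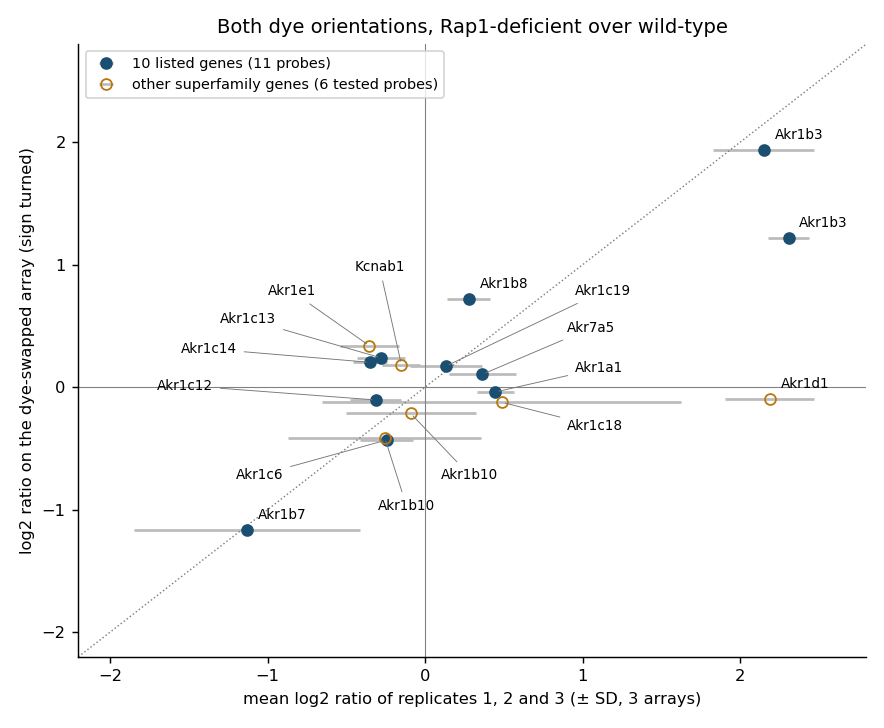
The mean log2 ratio of replicates 1, 2 and 3, with its SD over these 3 arrays, against the ratio on the dye-swapped array, for the 11 probes of the listed genes and 6 tested probes of other superfamily genes. The dotted line marks equal ratios in both dye orientations. *Akr1b3*, *Akr1b8* and *Akr1b7* lie in the quadrants of equal sign and away from 0 on both axes, whereas *Akr1d1* sits at 2.19 on one axis and -0.09 on the other.

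Other genes of the superfamily were listed to set the 10 genes beside the rest of it. Of 10 such genes, 9 had a probe and 5 were bright enough to be tested. *Akr1d1*, which reduces the steroid ring of bile acid precursors, was the only one called. Its ratios were 2.30, 2.40 and 1.87 on replicates 1 to 3 and -0.09 on the swapped array, with a log2 fold change of 1.79 ± 0.24 (SE, adjusted p = 0.0402 from limma). With the dye term it was 1.05 ± 0.12 (SE), with a dye coefficient of 1.14 (adjusted p = 0.00849 from limma). The ratio of *Akr1d1* was thus far from 0 on the 3 arrays of one dye orientation and near 0 on the array of the other.

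*Akr1c18*, which inactivates progesterone, had ratios of -0.16, -0.18 and -0.12 on replicates 1 and 2 and the swapped array and 1.80 on replicate 3, and was not called (adjusted p = 0.426 from limma). The *Akr1b10* probes had -0.78, -0.41 and -0.41 (A_51_P486618) and -0.40, -0.25 and -0.21 (A_55_P2095196) on the same 3 arrays. On replicate 3 they had 0.42 and 0.38, and neither was called. On these genes, as on *Akr1b7*, replicate 3 read higher than the other 3 arrays. Both *Akr1b3* probes also had their highest ratio on replicate 3, at 2.47 and 2.42, and the remaining listed genes had theirs on another array. Some marker lists of other cells, given below, were highest on it too, and others were not. Their part in these ratios was not tested. *Akr1e1*, a reductase of anhydrofructose, had a log2 fold change of -0.26, and *Kcnab1*, a potassium channel subunit with an aldo-keto reductase fold, had -0.12. Neither was called. *Akr1c21*, *Akr1cl*, *Kcnab2* and *Kcnab3* were not well above background on any array, and no probe was named as *Akr1c20*.

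The gene whose pattern over the 4 arrays was closest to that of *Akr1b3*, by the root mean square difference of the log2 ratios, was *Sult2a1*, a steroid sulfotransferase, at 0.79. It was followed by *Sult2a4* at 0.88, *Rgs16*, a regulator of G protein signalling, at 0.91, *Hadh*, a dehydrogenase of fatty acid oxidation, at 0.96, and *Gsta1*, a glutathione transferase, at 0.97. *Sult2a1* had ratios of 1.56, 1.55, 1.09 and 1.53. All 5 genes had ratios above 0 on the 4 arrays, from 0.37 to 2.29, and over 4 arrays such a likeness is a description only.

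The genes that share substrates or cofactors with the aldo-keto reductases were described from lists drawn up, like the group itself, with earlier results known. Of 78 such genes, the superfamily genes above included, 70 were tested with their brightest probe, and 14 were higher, 10 lower and 46 not called, against 34.1% of all named genes called. Their median log2 fold change was 0.07, against 0.00489 over all named genes. *Khk* and *Tkfc*, kinases that act on fructose, the end product of the polyol pathway, and on glyceraldehyde made from it, were both higher, by 0.62 ± 0.12 (SE) and 0.55 ± 0.13 (SE). On the swapped array they had 0.15 and 0.21. *Sord*, the sorbitol dehydrogenase that follows aldose reductase, had -0.20 (adjusted p = 0.243 from limma). Of 8 genes of the glucuronate and ascorbate route, 2 were lower. *Rgn*, a gluconolactonase of vitamin C synthesis, had a log2 fold change of -0.77 ± 0.10 (SE), with -0.29 on the swapped array, and *Ugp2*, which makes UDP-glucose, had -0.25, with 0.37 on the swapped array. The other tested probe of *Ugp2*, A_51_P475580, had 0.05 and was not called.

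Of 17 tested hydroxysteroid dehydrogenases and steroid reductases outside the superfamily, 3 were higher, 6 lower and 8 not called, against 34.1% of all named genes called. *Hsd17b6* had a log2 fold change of 0.87, with -0.77 on the swapped array. *Hsd3b1* had -0.74 ± 0.12 (SE), with ratios of -1.05, -0.45, -0.82 and -0.86 on the 4 arrays. In *Rap1*-deficient liver its signal cleared the background on 1 of 4 arrays. *Hsd3b5* had no signal well above background in the *Rap1*-deficient channel of any array and was at least 1.49-fold lower (adjusted p = 0.0402 from limma). Of 12 other carbonyl reductases, 3 were higher and 1 lower. Those with the smallest p were *Dhrs4* (0.87, -0.12 on the swapped array), *Ptgr1* (-0.59, 0.24) and *Dhrs1* (0.34, -0.23), each with the opposite sign on the swapped array.

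Of 8 tested genes of NADPH supply, 2 were higher, against 34.1% of all named genes called in either direction. *Idh1*, the cytosolic isocitrate dehydrogenase, had a log2 fold change of 2.83 ± 0.45 (SE), with -0.77 on the swapped array, and *Pgd*, of the pentose phosphate pathway, had 0.59 ± 0.16 (SE) and -0.01. None of 4 genes of methylglyoxal detoxification was called by limma, and 0 had an unadjusted p under 0.05, with log2 fold changes from -0.11 to 0.11. Of 12 regulators described for aldo-keto reductase genes, 3 were higher and 1 lower. *Nfe2l2*, which encodes the antioxidant factor NRF2, had -0.45 ± 0.11 (SE) and 0.27 on the swapped array, *Keap1*, its inhibitor, had 0.34 and 0.04, and *Mafg*, its partner, had 0.39 and 0.24.

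**Figure D4:**
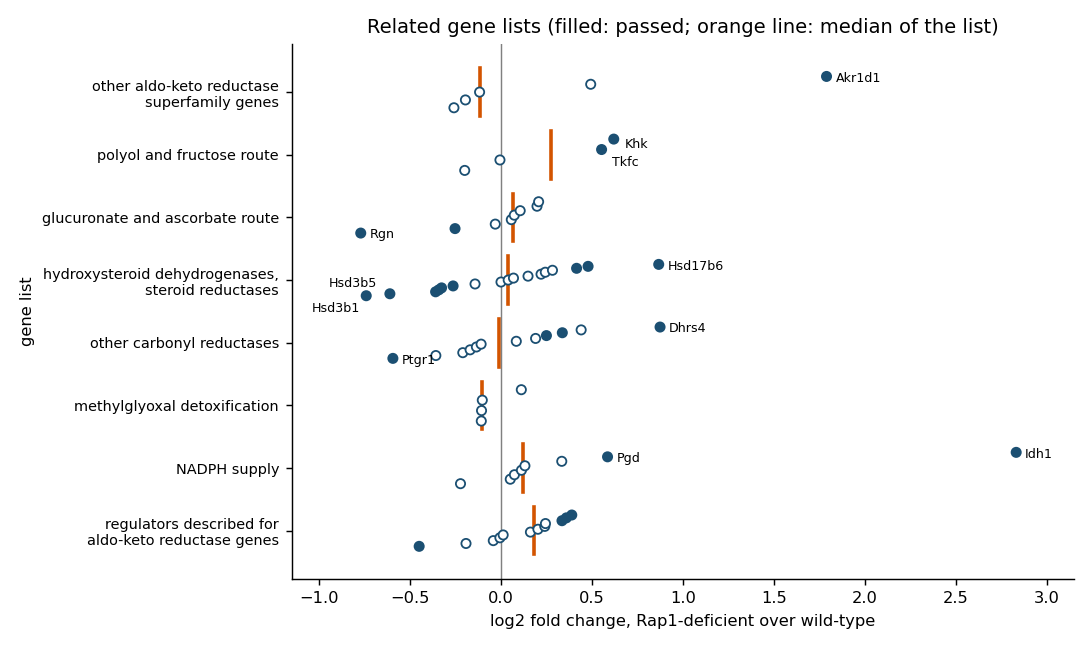
The log2 fold change of *Rap1*-deficient over wild-type liver for each tested gene of 8 related lists, 1 point per gene, filled where it was called, with an orange line at the list's median. *Khk* and *Tkfc* sit above 0.5, *Idh1* at 2.83 and *Akr1d1* at 1.79, and no gene of methylglyoxal detoxification is filled.

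Markers of liver cells were checked beside these results. All 10 hepatocyte markers had signals well above background in both channels of every array, and the log2 of their summed intensities ranged from 19.7 to 20.2 in *Rap1*-deficient and from 19.8 to 20.2 in wild-type liver. The difference of *Rap1*-deficient minus wild-type liver was 0.40, 0.40 and 0.32 on replicates 1 to 3 and -0.51 on the swapped array. The summed level of the 7 Kupffer cell markers with a probe ranged from 14.5 to 16.3, against 15.1 to 15.2, and that of 5 neutrophil markers from 11.3 to 13.2, against 11.6 to 11.9. The 7 stellate cell markers ranged from 14.32 to 14.96, against 14.33 to 14.44, and 6 T and NK cell markers from 11.07 to 11.82, against 10.96 to 11.17. In each of these 4 lists the highest *Rap1*-deficient value was that of replicate 3. On that array the summed level, as the log2 difference of *Rap1*-deficient minus wild-type liver, was 1.19 for the Kupffer cell, 1.43 for the neutrophil, 0.63 for the stellate cell and 0.76 for the T and NK cell list. The other 3 arrays had -0.74 to 0.11, -0.50 to -0.29, -0.07 to 0.13 and -0.10 to 0.39. The sinusoidal endothelial cell, cholangiocyte, B cell, erythroid cell and enterocyte lists had their highest difference on another array. On replicate 3 they had 0.25, 0.33, 0.10, -0.06 and -0.05, against highest values of 0.34, 0.42, 0.32, 0.93 and 0.88. The ratio was highest on replicate 3 for 6 of 7 tested Kupffer cell markers, 2 of 3 of the neutrophil list, 4 of 7 of the stellate cell list and 4 of 4 of the T and NK cell list. The highest tested ratios on that array in the Kupffer cell, stellate cell, neutrophil and T and NK cell lists were *Marco* at 2.71, *Col1a1* at 1.85, *S100a8* at 1.83 and *Cd3g* at 2.02. The lowest were *Vsig4* at -0.14, *Lrat* at 0.02, *Elane* at 0.16 and *Nkg7* at 0.53. *Cd3g* was well above background on 4 arrays in *Rap1*-deficient and 1 in wild-type liver. These markers were chosen after their values were seen.

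The 6 adipocyte markers ranged from 8.83 to 10.5, against 8.91 to 9.09, and stood highest on the replicate 1 array and its swap, with differences of 1.44 and 1.32, against 0.15 and -0.15 on replicates 2 and 3. *Adipoq* was well above background on 3 arrays in *Rap1*-deficient and 0 in wild-type liver, *Plin1* on 2 and 0, *Cidea* on 1 and 0, *Retn* on 4 and 3, *Cfd* on 3 and 4 and *Lep* on none. Of the 6 kidney proximal tubule markers, *Slc34a1* was well above background in both channels of every array, *Slc22a6* on 3 arrays in *Rap1*-deficient and 2 in wild-type liver, and *Kap*, *Umod*, *Lrp2* and *Slc5a2* on none. Their summed level ranged from 8.98 to 9.22, against 8.97 to 9.11. The part of these cells in the ratios of the aldo-keto reductases was not tested.

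Each probe was followed through 13 other processing settings (12 for *Akr1b7*). The *Akr1b3* probes were called in 12 of them, with log2 fold changes from 2.01 to 2.31 and from 1.76 to 2.76. *Akr1b7* was called in 9, from -2.28 to -0.85. *Akr1a1* was called in 8, *Akr1b8*, *Akr1c6* and *Akr1c12* in 7 and *Akr7a5* in 6. None of these 8 probes changed sign in any setting. Without replicate 2, no probe of the 10 genes was called by limma, 5 had an unadjusted p under 0.05, and the *Akr1b3* probes had log2 fold changes of 2.18 and 2.10 (adjusted p = 0.249 and 0.267 from limma). In that setting 7 of all 27513 tested probes were called. The share of all tested probes at the unadjusted threshold is not given, so the count of 5 has no background beside it.

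**Figure D5:**
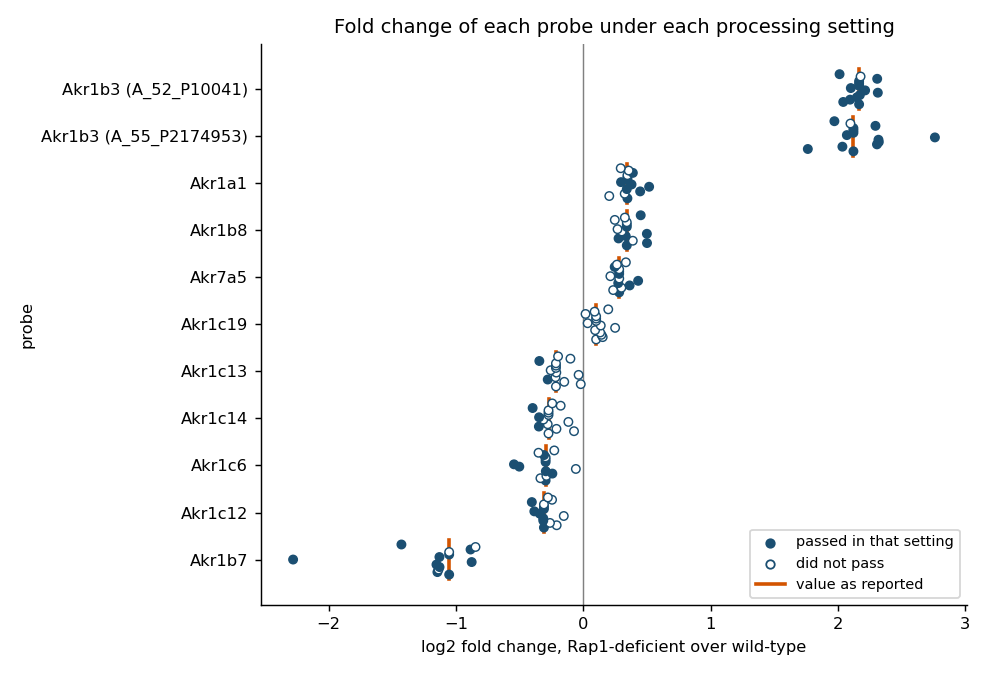
The log2 fold change of each of the 11 probes under the reported setting and 13 alternatives, 1 point per setting, filled where the probe was called in that setting, with an orange line at the value as reported. The *Akr1b3* points lie at 1.76 or above, those of *Akr1b7* at -0.85 or below, and those of the other genes between -0.54 and 0.52.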

How the data were processed

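Liver RNA of both genotypes was hybridised to 4 Agilent arrays in 2 colours. The deposited scans hold median spot and local background intensities of both dyes from Feature Extraction 10.7.3.1, per the file headers (the paper names a different version). They also hold the authors' processed intensities (background-subtracted, detrended and dye-normalized) and a deposited log10 ratio of Cy5 over Cy3. The authors' value table holds log2 ratios credited to limma in their processing notes, with column medians of -0.01, -0.02 and -0.02 for replicates 1, 2 and 3 and 0.000826 for the swap. Its columns correlated with the turned scan ratios at r = 0.65 to 0.8, so its dye swap was already turned. Its background correction and normalization are not stated. The labels give RNA integrity numbers from 6.6 to 8.7, not split by genotype.

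With limma 3.58.1 in R 4.3.3, the median intensities were background-corrected (normexp, offset 50) and each array was loess-normalized, giving control spots weight 0. Outlier-flagged spots were dropped, at a loss of 5 probes, and the remaining spots of each probe were averaged. Tested probes, 49.4% of 55681, had at least 0.5 of their spots well above background in 1 genotype or both on all arrays. In each channel 50.1% to 56.4% of the spots passed this flag, none was saturated, and precision is limited by the number of arrays. Levels per channel were taken after loess and Aquantile normalization. Accessions gave 26056 probes (46.8%) a gene name, by a RefSeq table of GRCm38.p6. The array was designed on mm9, so no gene coordinates of that table are given. All arrays lay on 1 slide with 1 scan time.

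The test was limma's lmFit and eBayes with an intercept over 3 pairs, Benjamini-Hochberg adjustment across all tested probes and the FDR of 0.15 that the paper used. The fit was also run on simulated ratios of 3 independent pairs without a dye bias. That run does not cover the departure of the swapped array. The members and the gene lists were chosen with earlier results of these data known. The text names every probe of the 10 genes and of the other superfamily genes, up to 3 genes with the smallest p in each other list, and the 5 genes most like *Akr1b3* over the 4 arrays. *Sord* was named after its values were seen, and 1 gene of the lists is not reported here and was left out of their counts. The value in a list is that of the probe with the highest mean intensity. Promoter windows were aligned globally with Biopython.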

Additional observations from a re-analysis of the deposited data

Results flagged for a closer look

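On 6 of the tested superfamily probes, replicates 1, 2 and 3 all lay on one side of 0 and the dye-swapped array on the other. The ratio on the swapped array was -0.0392 for *Akr1a1*, 0.239 for *Akr1c13*, 0.203 for *Akr1c14*, -0.0946 for *Akr1d1*, 0.337 for *Akr1e1* and 0.184 for *Kcnab1*. With 1 array in that dye orientation, the difference between the orientations was not tested by these signs alone. In the fit with the dye term, the dye coefficient had an adjusted p under 0.15 for *Akr1d1*, *Akr1c14*, *Akr1c13*, *Akr1a1* and *Akr1e1* (0.00849, 0.0896, 0.124, 0.123 and 0.0815, limma) and 0.246 for *Kcnab1*. These probes were picked by the sign of the swapped array, which enters that coefficient, so its p-values are a description only. The share of all tested probes under that threshold is not given.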

How the results depend on the processing

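The count of tested probes called, 9488 in the reported setting, was 1844 with a dye term over the 4 arrays (each counted as a separate sample), 83 with the dye swap as a replicate of its own, 14496 without the swapped array, 2495 at an FDR under 0.05 and from 7 (without replicate 2) to 12596 (without replicate 1) when 1 replicate was left out. The count of aldo-keto reductase probes called, 8 of 11, was 4, 2, 10, 2 and from 0 (without replicate 2) to 9 (without replicate 1) in the same settings. The count of genes of the related lists called, 24 of 70, was 8 with the dye term, 0 with the swap as its own replicate, 40 without the swapped array, 10 at an FDR under 0.05 and from 0 (without replicate 2) to 38 (without replicate 1). At an unadjusted p under 0.05 in limma, 19 of these genes passed with the swap as its own replicate and 13 without replicate 2. The share of all named genes at that threshold is not given. Without replicate 3, the counts were 2735 probes, 4 aldo-keto reductase probes and 13 related genes. The cause of these moves was not tested. No background correction, Agilent's processed signals, the authors' value table, median centring and other filters on dim probes left 6 to 8 of the 11 probes called. Of all 27513 tested probes, these settings called from 6472 (median centring) to 10105 (no background correction). The other filters called 9175 of 55676 probes (no filter) and 8308 of 24846 (well above background in both genotypes). *Akr1b7* was not tested where both genotypes had to be well above background. A slide or scan block was not run, since all arrays shared 1 slide and 1 scan time. Each ratio sets both genotypes against each other on 1 array, so the reported test is itself over pairs. Beyond that, no paired analysis was possible because the dye orientations share only the number 1.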
